A study of Mus musculus with 9 samples.

Results

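The MHC class II genes considered here are H2-Aa and H2-Ab1, which encode the alpha and beta chains of the mouse class II molecule I-A, Cd74, which encodes the invariant chain, and Ciita, which encodes the class II transactivator. The 4 genes were selected on measured values. They are the rows of the authors' table of significant changes that carry one of these symbols, and that table lists 964 of the 31648 array rows, chosen by the authors for a p below 0.001 and a change of at least 2-fold between the same samples. No symbol starting with H2-E, H2-DM or H2-O is in the table, and those class II genes are not analysed here. Each of the 4 genes had 1 row in the authors' table.

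The cells were splenocytes sorted by flow cytometry for CD11b and Gr1, a surface phenotype shared by neutrophils, Ly6C-high monocytes and their precursors. The tumour-bearing group comprised 6 L2-Cre;p120f/f mice, each measured on its own array, and the control group comprised 3 arrays. Each control array held a pool of cells from L2-Cre;p120+/f animals, 3 per pool, that were healthy. Both groups carried the L2-Cre transgene and at least 1 floxed allele of p120, the catenin gene Ctnnd1, on a mixed C57BL/6x129 background. L2-Cre is known to act in the squamous epithelium of the mouth and oesophagus. Whether it acted in the sorted spleen cells was not tested. The groups follow the titles. Further labels name an embryonic age, forelimb tissue and wild-type or Shh -/- genotypes, and these were set aside because they conflict with the titles, so the age of the animals is unknown. Tumour, p120 genotype and pooling differ between the groups together and their parts cannot be told apart. No batch is recorded. Over all rows, pairs of arrays correlated at 0.985 to 0.991 among the mice, 0.986 to 0.990 among the pools and 0.954 to 0.974 across the groups. Of the genes that define the sort, Itgam, Ly6g and Ly6c1 have no row in the authors' table, so the gate was not checked against them.

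MHC class II molecules present peptides from endocytosed proteins to CD4+ T cells. The alpha and beta chains assemble with the invariant chain, which blocks the peptide groove in the endoplasmic reticulum and directs the complex to endosomes, where proteases such as cathepsin S degrade it and peptide is loaded. The genes are transcribed at high level in B cells, dendritic cells and many macrophages, at low level or not at all in neutrophils, and can be induced by interferon gamma. Their promoters share the X and Y boxes, bound by RFX, CREB and NF-Y, on which the non-DNA-binding coactivator CIITA assembles, and CIITA is the limiting factor for class II transcription in most cells. The strains of the C57BL/6x129 background carry the b haplotype, which makes I-A but no surface I-E.

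The promoter of H2-Aa is shown because H2-Aa, H2-Ab1 and Cd74 were lower together and are known to share this type of promoter. Of the 4 genes, 1 matched the promoter table used here, from RefSeq (GRCm38.p6). The sequence is the 250 bases before the annotated start, at chr17:34287824-34288073 on the minus strand, written 5′ to 3′ along the gene. Capitals mark matches to the core of the X1 element (GCAAC), the X2 box (TGACGTCA) and the Y box (GATTGG).

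H2-Aa: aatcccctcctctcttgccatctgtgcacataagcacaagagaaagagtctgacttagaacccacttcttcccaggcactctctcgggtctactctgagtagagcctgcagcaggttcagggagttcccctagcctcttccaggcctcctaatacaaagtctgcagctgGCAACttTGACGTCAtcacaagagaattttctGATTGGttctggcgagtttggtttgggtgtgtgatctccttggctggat

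The X1 core lies 81 to 77 bases before the start, the X2 box 74 to 67 bases and the Y box 49 to 44 bases, in the order known for class II promoters, on the strand shown. Searched on both strands in all 32851 promoters of the table, which also hold the first transcribed bases, the X1 core occurred in 35.2%, the X2 box in 1.79% and the Y box in 16.1%. All of them together, in any order, occurred in 0.119%. The letters were chosen with this sequence in view and no motif overlapped another. A match describes the sequence and does not show that a factor binds it. H2-Ab1, next to H2-Aa on chromosome 17 with no protein-coding gene between them, Cd74 and Ciita are named without sequence.

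The members were all lower in the tumour-bearing mice. H2-Aa was 11.6-fold lower, Cd74 9.28-fold, H2-Ab1 8.97-fold and Ciita 3.83-fold. Because the authors chose the rows on this contrast, the differences are a description and carry no test. Values are log2 expression throughout, and differences are tumour-bearing minus control.

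H2-Aa, the alpha chain gene, ranged from 6.66 to 7.47 in the 6 mice with a median of 7.11, and stood at 10.54, 10.57 and 10.73 in pools 1, 2 and 3. The means were 7.08 ± 0.36 (SD, n = 6 mice) and 10.61 ± 0.10 (SD, n = 3 pools), a difference of -3.53. The pools lay close together and every mouse was below every pool, with 3.07 between the highest mouse and the lowest pool, or 8.39-fold.

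H2-Ab1, the beta chain gene, ranged from 6.68 to 7.98 in the mice with a median of 7.36, and stood at 10.54, 10.28 and 10.63 in the pools. The means were 7.32 ± 0.42 (SD, n = 6) and 10.48 ± 0.18 (SD, n = 3), a difference of -3.17. Mouse 3 was the lowest and mouse 6 the highest, and the gap to the lowest pool was 2.30.

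Cd74, whose product chaperones the class II chains and is also a receptor subunit for the cytokine MIF, ranged from 7.60 to 8.77 in the mice with a median of 8.05, and stood at 11.39, 11.23 and 11.32 in the pools. The means were 8.10 ± 0.45 (SD, n = 6) and 11.31 ± 0.08 (SD, n = 3), a difference of -3.21. Here too mouse 3 was the lowest and mouse 6 the highest, with a gap of 2.47 to the lowest pool.

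Ciita, the transactivator gene, ranged from 6.02 to 6.46 in the mice with a median of 6.08, and stood at 8.430, 7.996 and 7.963 in the pools. The means were 6.19 ± 0.21 (SD, n = 6) and 8.13 ± 0.26 (SD, n = 3), a difference of -1.94. The gap between the highest mouse and the lowest pool was 1.51. Mice 1, 2, 3 and 5 lay within 6.02 to 6.09, while mice 4 and 6 both stood at 6.46 (the deposited values are identical, as happens on at least 2 arrays for 45.5% of all rows). The mice lay close above the array medians, which were 5.92 to 5.99, and whether they were above background was not assessed, so the Ciita difference may be understated.

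**Figure D1:**
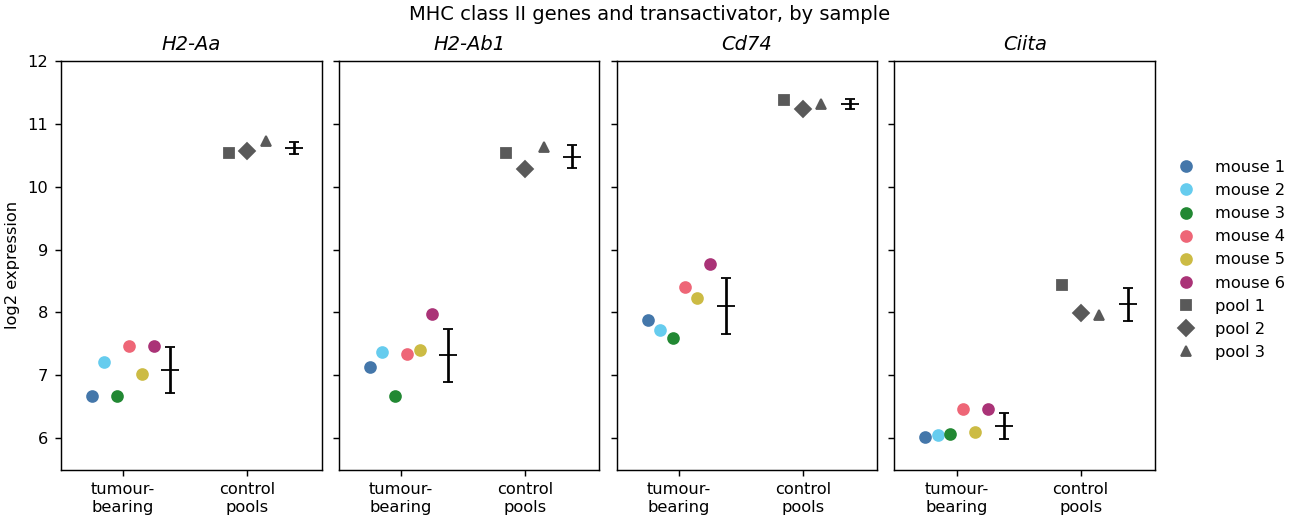
Log2 expression (vertical axis) of H2-Aa, H2-Ab1, Cd74 and Ciita in the 6 tumour-bearing mice (coloured circles) and the 3 control pools (grey symbols), with the mean and SD of each group as black bars. All mice lie below all pools in each panel, and for Ciita mice 4 and 6 stand at 6.46 above the other mice.

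All 4 members lay below without overlap between the groups, as did 9.39% of all array rows. By the authors' rule 1.43% of all rows were lower, and in limma 8.83% passed in the lower direction (Benjamini-Hochberg adjusted p under 0.05), with all 4 members among them. The authors' selection used this contrast, so nothing is read from these shares. Of the 451 lower rows of the authors' table, H2-Aa had the 6th largest difference, Cd74 the 10th, H2-Ab1 the 12th and Ciita the 89th. The median difference was -3.19 over the members, -1.40 over the lower rows of the table and 0.02 over all rows. Ciita lies nearest to the 2-fold limit. The smallest absolute difference in the table was 1.0003, and class II genes that fell short of the authors' limits, if measured, are not named.

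The class II genes also varied among the tumour-bearing mice, which the authors' selection did not require. Their SD over the mice was 0.36 for H2-Aa, 0.42 for H2-Ab1 and 0.45 for Cd74, against a median of 0.20 over the lower rows of the authors' table. These spreads exceeded those of 93.9%, 96.5% and 96.9% of the table's rows, and of 93.0%, 95.6% and 96.4% of all array rows. The SD of Ciita, 0.21, exceeded 60.8% of the table's rows and 77.5% of all rows. The authors' p limit allows a larger spread at a larger difference, so the rank within the table is set in part by the selection. From the lowest to the highest mouse Cd74 spanned 2.25-fold and H2-Ab1 2.46-fold, whereas the pools spanned 1.11-fold and 1.27-fold. Each pool averages 3 mice, so its narrower spread cannot be told apart from pooling.

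H2-Aa, H2-Ab1 and Cd74 had positive correlations over the mice, but none of the 6 pairs of members passed adjustment. Pearson's r over the 6 mice was 0.85 for H2-Ab1 with Cd74 (exact two-sided permutation p = 0.0264, adjusted over the 6 member pairs 0.0792), 0.80 for H2-Aa with H2-Ab1 (exact p = 0.0472, adjusted 0.0944) and 0.77 for H2-Aa with Cd74 (exact p = 0.0944, adjusted 0.113). Spearman's rho was 0.71 for each of these pairs (exact p = 0.136, adjusted 0.163). Without the 2 mice farthest from the median of the first gene, r was 0.34, 0.49 and 0.60 in the same order, so the relation of H2-Ab1 with Cd74 rests largely on mice 3 and 6. For Ciita the mice fell into 4 low and 2 high values, so r with Ciita mostly sets mice 4 and 6 against the others. With Cd74 it was 0.86 (exact permutation p = 0.0194, adjusted 0.0792), with H2-Aa 0.84 (exact p = 0.0806, adjusted 0.113) and with H2-Ab1 0.64 (exact p = 0.192, adjusted 0.192). Spearman's rho was 0.75, 0.81 and 0.52 in the same order (exact p = 0.106, 0.0722 and 0.3, adjusted 0.163, 0.163 and 0.3). Without the 2 mice farthest from the median of Cd74, H2-Aa or H2-Ab1, r with Ciita was 0.81, 0.91 and 0.30 in that order. The 3 pairs count in the adjustment, and only Cd74 with Ciita had an unadjusted p of r under 0.05. The 2 mice with the highest Ciita, 4 and 6, were also the 2 highest for H2-Aa (7.46 and 7.47) and Cd74 (8.40 and 8.77). For H2-Ab1 they were not, since mouse 4 stood at 7.34, below mice 2 and 5 at 7.37 and 7.40.

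Of 25 genes of the class II pathway, 5 were named, the members and Ctss. The others, among them the genes for the RFX and NF-Y subunits and for the DM and DO chaperones, are not named in the files and were not analysed here. A gene is named here only if it passed the authors' limits on this contrast, so unchanged genes of any list cannot appear. Of all 895 named genes 410 were lower. Ctss, which encodes cathepsin S, ranged from 8.66 to 9.30 in the mice with a median of 8.78, and stood at 10.55, 10.14 and 10.39 in the pools. The difference was -1.46. Mice 4 and 6, at 9.22 and 9.30, were again the highest of the 6, and no mouse reached a pool.

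Named genes of the class I pathway, which presents peptides from the cytosol, numbered 3 of 25. All of them were lower, as were 410 of all 895 named genes, with a median difference of -1.22. For the named class II pathway genes the median was -3.17. Both lists hold only genes that passed the authors' limits on this contrast, and their single genes overlap, with Ciita at -1.94. No difference between the lists is read from these medians. Nlrc5, the class I transactivator and a relative of CIITA, had means of 6.64 ± 0.11 (SD, n = 6) and 7.86 ± 0.03 (SD, n = 3), a difference of -1.22. Psme2, a subunit of the interferon-inducible proteasome activator, differed by -1.10. H2-Q10, a class I gene of the Q region, differed by -2.69, with 6.11 to 6.56 in the mice and 8.65 to 9.59 in the pools. Class I genes have near-identical copies, so this row is uncertain as to the gene. Mouse 4, high for H2-Aa, was the lowest mouse for H2-Q10.

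Genes by which antigen-presenting cells engage T cells beside the MHC were represented by 3 of 14. Cd274, the inhibitory ligand PD-L1, differed by -3.15, Cd80, a ligand of CD28 and CTLA-4, by -1.39 and Icam1, an adhesion ligand of LFA-1, by -1.13. Of the 20 protein-coding genes nearest to the H2-Ab1 and H2-Aa pair, 10 on each side, 1 had a row in the authors' table. It was Btnl2, a butyrophilin-like gene, at -1.33. The authors' table holds 964 of all 31648 array rows, so nothing is read from this count. Whether the other neighbours were measured or changed is unknown.

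Where 410 of all 895 named genes were lower, all 9 named of the 25 interferon-gamma response genes were, with a median difference of -1.50. They included Gbp2 (-1.92), Gbp5 (-1.77) and Gbp3 (-1.67), which encode guanylate-binding proteins, and the immunity-related GTPase gene Irgm1 (-1.56). Irf1, a transcription factor gene through which interferon gamma acts on the Ciita promoter, differed by -1.37.

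**Figure D2:**
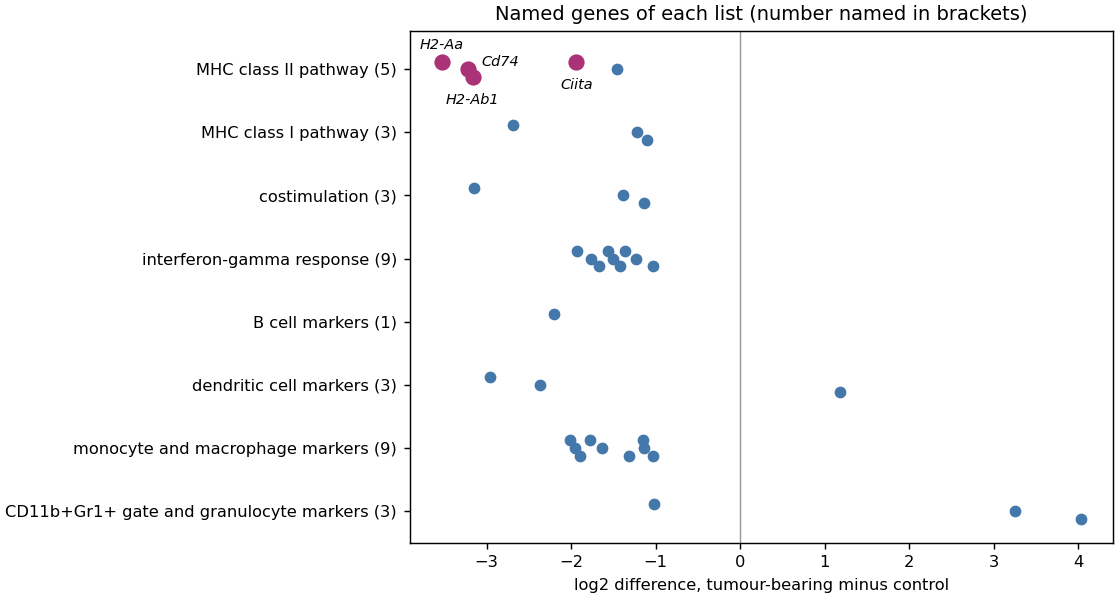
Log2 difference, tumour-bearing minus control (horizontal axis), of each named gene of 8 gene lists (rows, with the number named), the 4 members in purple. H2-Aa, Cd74 and H2-Ab1 lie at -3.53, -3.21 and -3.17, and the 9 named interferon-gamma response genes all lie below 0, with a median of -1.50. Only genes with a row in the authors' table are named.

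Most named markers of cell types that carry class II were lower in the same samples, with the dendritic cell marker Ly75 as the exception. Among all 895 named genes 410 were lower, and markers short of the authors' limits cannot appear. The monocyte and macrophage list holds 28 genes, of which 9 had a named row, each of them lower. Their summed level on the linear scale was 3202 to 4557 in the mice and 10910 to 11784 in the pools, and the median difference was -1.63. Adgre1 (F4/80) differed by -2.01, the macrophage colony-stimulating factor receptor gene Csf1r by -1.95, Nr4a1, a nuclear receptor of patrolling monocytes, by -1.90 and the perforin-like gene Mpeg1 by -1.78. Of 20 B cell markers only Cd22, an inhibitory co-receptor, was named. It ranged from 6.01 to 6.40 in the mice and from 8.18 to 8.58 in the pools. The defining B cell genes Cd79a, Ms4a1 and Pax5 have no named row in the authors' table and were not analysed here. Whether they fell short of the authors' limits or were not measured is unknown.

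Of 17 dendritic cell markers 3 were named. Itgax (CD11c) differed by -2.96 and the lectin gene Cd209a by -2.37, while Ly75 (DEC-205) was higher, by 1.18. The summed level of these markers on the linear scale was 1297 to 1540 in the mice and 1549 to 1882 in the pools. Ly75 stood at 10.14 to 10.39 in the mice and 8.97 to 9.16 in the pools. In the mice Itgax stood at 6.26 to 6.76 and Cd209a at 6.19 to 6.60, so Ly75 made up most of their sum. Of the 19 genes of the gate and of granulocytes 3 were named. The granule protein genes Mpo and Elane were higher by 4.03 and 3.25 and the receptor gene Csf3r stood lower, at a difference of -1.01. Array values have no true 0, so no marker can be called absent. In a bulk sample fewer cells of a type and less RNA per cell cannot be told apart, and the part of these cell types in the class II difference was not tested.

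Over the 6 mice H2-Aa was compared with 25 named markers of these lists. None of the 25 relations passed adjustment. Within the monocyte and macrophage list r ran from -0.07 for Nr4a1 and 0.20 for Treml4 to 0.93 for Ace, with a median of 0.74 over the 9 genes. For Nr4a1 and Treml4 rho was -0.09 and 0.26 (exact permutation p of r 0.918 and 0.668, adjusted 0.918 and 0.726; exact p of rho 0.919 and 0.658, adjusted 0.972 and 0.784). With Ace, a gene of non-classical monocytes, r was 0.93 and rho 0.94 (exact permutation p = 0.0181 and 0.0167, adjusted 0.15 and 0.139). With Csf1r r was 0.92 and rho 0.94 (exact p = 0.0139 and 0.0167, adjusted 0.15 and 0.139), and with Mpeg1 r was 0.81 and rho 0.94 (exact p = 0.0181 and 0.0167, adjusted 0.15 and 0.139). With Adgre1, the marker of largest difference in this list, r was 0.58 and rho 0.49 (exact p = 0.236 and 0.356, adjusted 0.421 and 0.593). Without mice 1 and 3, which lay farthest from the H2-Aa median, r over the remaining 4 was 0.86 for Ace, 0.93 for Csf1r, 0.68 for Mpeg1 and 0.74 for Adgre1. With Cd22 r was 0.64 and rho 0.54 (exact p = 0.178 and 0.297, adjusted 0.404 and 0.593). With Itgax r was 0.56 and rho 0.43 (exact p = 0.242 and 0.419, adjusted 0.421 and 0.655), and without mice 1 and 3 r for Itgax was -0.79. The smallest p that 6 mice allow in a two-sided test is 0.00278.

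Over the 9 interferon-gamma response genes the median r with H2-Aa was 0.48, with values from 0.23 for Gbp7 to 0.87 for Tgtp1, a GTPase gene (exact p = 0.593 and 0.0306, adjusted 0.726 and 0.181; rho -0.03 and 0.77, exact p = 1 and 0.103, adjusted 1 and 0.428). The lists overlap in their range of r, and whether they differ was not tested. Without mice 1 and 3 the r of 7 of the 9 genes were below 0. On the same 4 mice 8 of the 9 monocyte and macrophage markers and 14 of all 25 markers had r above 0. These r over 4 mice were not tested, and no difference between lists is read from them. Mice 4 and 6 were the 2 highest for 3 of the 4 members, 7 of 9 monocyte and macrophage markers and 0 of 9 interferon-gamma response genes, a count chosen after the values were seen. Among all 410 named genes lower in tumour-bearing mice, they were the 2 highest for 19.0%. Mouse 6 was among the 2 highest for all 4 members, 9 of 9 monocyte and macrophage markers and 7 of 9 interferon-gamma response genes, and for 261 of the 410 lower genes. Mouse 5 was among the 2 highest for 8 of the 9 interferon-gamma response genes, 1 of 9 monocyte and macrophage markers and 1 of the 4 members, H2-Ab1, and for 252 of the 410 lower genes. No test of these counts was made.

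**Figure D3:**
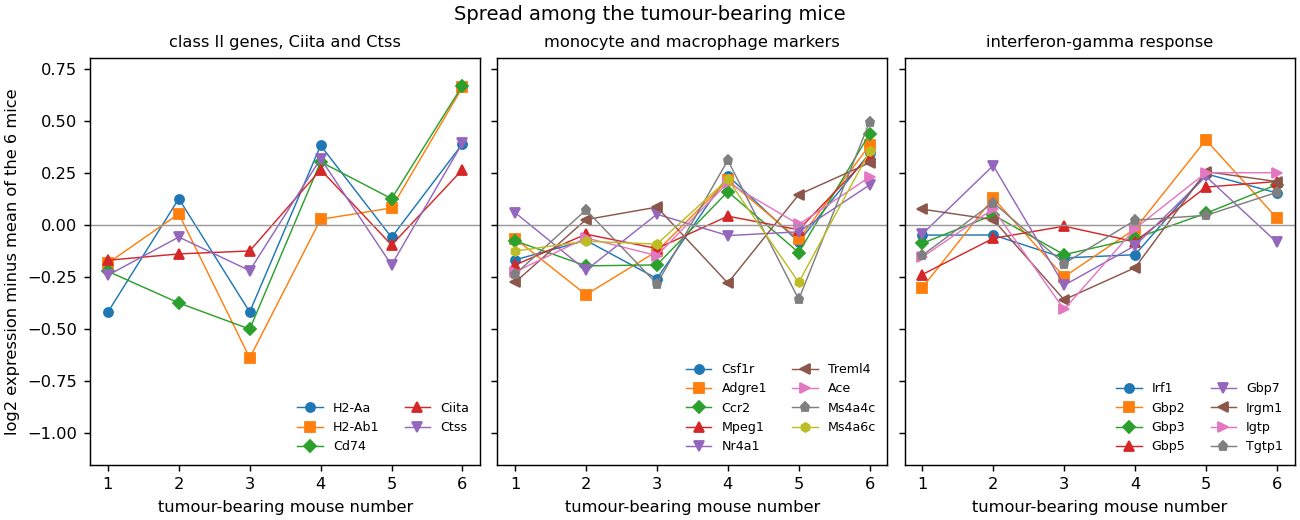
Log2 expression of each gene minus its mean over the 6 tumour-bearing mice (vertical axis) for each mouse (horizontal axis), for the class II pathway genes, the 9 named monocyte and macrophage markers and 8 of the 9 named interferon-gamma response genes, the other one not being reported here. Lines only join the points of 1 gene. Mice 4 and 6 are high for most class II and monocyte genes, and mouse 5 is among the 2 highest for the interferon-gamma response genes shown except Tgtp1.

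Deviations from the group means over all 9 samples were compared between H2-Aa and 891 other named genes. The most alike were 9930111J21Rik2 (r = 0.94), named by its clone, Tppp3, a tubulin-polymerisation promoting gene (0.88), Cd300ld, a CD300 family receptor gene (0.88), Csf1r (0.87) and LOC100038947 (0.87). All 5 were lower in the tumour-bearing mice, with differences from -2.24 to -1.13. These are the extremes of 891 genes over 9 samples and are given as a description. H2-Ab1 reached 0.78 with H2-Aa and Cd74 0.75. By the same measure, in which mice 4 and 6 stand apart for Ciita, Ciita was most alike to Pgap1, an enzyme gene of GPI-anchor processing (0.94), Tmem176b, a membrane protein gene (0.94), Rassf4, a Ras-association domain gene (0.93), Nav1, a neuron navigator gene (0.93), and the lectin receptor gene Clec4a3 (0.92).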

How the data were processed

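Sorted CD11b+Gr1+ splenocytes were profiled on Affymetrix expression arrays, per the labels' protocols. The authors deposited log2 expression values, already normalized. RMA, PLIER, Affymetrix Power Tools and build mm9 are listed in the submitters' processing notes, without versions and without saying which method gave these values. They run from 1.95 to 13.95, as log2 values do. The authors' difference column equals the difference of their log2 group means. Arrays give no counts, and their number limits the precision.

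The value table has no gene names. Each of the 964 selected rows was found once in it by its 9 values (5 decimals), and its name was updated through RefSeq (GRCm38.p6, 717 by accession, 114 by symbol, 52 by synonym, 81 kept). This gave 895 genes, with the row of highest mean used per gene. The other 30684 rows are unnamed here.

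All rows were fitted with limma 3.58.1 in R 4.3.3 (lmFit, eBayes, two-sided, Benjamini-Hochberg over 31648 rows, threshold 0.05). The limma step and the exact permutation tests of correlations (Python 3.11.15) were tested on simulated data. Alternatives were median centring, quantile normalization, 16 added on the linear scale, rows with a mean of at least 6, the methods' t-test, a Welch test, the replicate number as a block, Spearman's rho, deviations over all samples and leaving out each sample. Members, lists and tests were chosen with earlier results of these data known. The text names all members, up to 4 genes per list (ranked by absolute difference) and the 5 genes most alike to H2-Aa and to Ciita; Irf1, Ace, Treml4, Gbp7 and Tgtp1, and Btnl2, were named after their values were seen. The labels do not say that the 6 mice came from separate litters or batches. Some items are not reported here.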

Additional observations from a re-analysis of the deposited data

Results flagged for a closer look

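In Cd80, which encodes a costimulatory ligand, mouse 4 was lower than its group. Its log2 value was 7.12, against 7.33 to 7.43 in the remaining tumour-bearing mice, and the distance to the nearest mouse was 0.672 of the range of all 6. The pools lay higher, at 8.52 to 8.86. This was the single case among 45 genes, fewer than the 2.25 that chance would give, and no class II member was one.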

How the results depend on the processing

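The differences of the 4 members moved by less than their SD pooled over both groups under all 52 values from alternatives and leave-one-out fits. That SD was 0.313 for H2-Aa, 0.369 for H2-Ab1, 0.379 for Cd74 and 0.223 for Ciita, and no difference changed sign. Leaving out 1 sample gave -3.61 to -3.45 for H2-Aa, -3.30 to -3.04 for H2-Ab1, -3.35 to -3.11 for Cd74 and -2.02 to -1.79 for Ciita. Each member has 1 named row, so averaging over rows could not be tried. Whether the unnamed rows hold further rows of these genes is unknown. Of all rows, 7333 passed in limma, 3812 with a Welch test, which takes a separate spread from the 3 pools (153 rows had no p), and 4289 with the replicate block, fitted on mice and pools 1 to 3. The other 5 alternatives gave 6611 to 7584 and leaving out 1 sample 6201 to 7113. Deviations of mouse and pool 1, 2 and 3 correlated at 0.094, 0.0067 and 0.023, which gives no ground for pairing them. With the replicate block the members' differences changed no sign. Of the member pairs 0 of 6 passed adjustment over the 6 mice (exact permutation test, 3 at an unadjusted p under 0.05); with deviations over all 9 samples 1 passed, Cd74 with Ciita, whose values fall into clusters; the cause was not tested. All pairs had positive r under all alternatives run. Of the 25 markers 0 passed under all alternatives run (5 at an unadjusted p under 0.05 as deposited). Background signal was not used, so dim rows such as Ciita in the mice were not separated from undetected ones.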

Other observations

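The named genes whose deviations from the group means ran most inversely to those of the class II genes over the 9 samples, listed after their values were seen, were higher in the tumour-bearing mice. For H2-Aa they were OTTMUSG00000019600 (r = -0.95, difference 1.82), Tbrg1 (-0.91, difference 1.32), Troap, a spindle-associated gene (-0.91, difference 1.22), the centromere gene Cenpq (-0.91, difference 1.02) and Coro7, of the coronin family (-0.90, difference 1.003). For Ciita they were Smtn, which encodes smoothelin (-0.90, difference 1.09), Pimreg (-0.89, difference 1.08), Cep55, of the midbody (-0.88, difference 1.15), the mitotic ubiquitin-conjugating enzyme gene Ube2c (-0.86, difference 1.29) and the centromeric histone gene Cenpa (-0.86, difference 1.13). These are the extremes of 891 genes and were not tested.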
